A study of Homo sapiens with 54 samples.

Results

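The 6 RNA-seq libraries described here came from HEK293T cells given crRNA S7 together with either of 2 forms of the RNA-cutting enzyme RfxCas13d. The N2V8_S7 group of 3 libraries carried N2V8, a high-fidelity form with mutations in the HEPN1 nuclease domain, and the WT_S7 group of 3 libraries carried the native form (WT). They were chosen from the series by the effector and crRNA in their labels alone and are 6 of its 54 libraries, which form 18 groups of 3. HEK293T is a transformed human embryonic kidney line, all cells were wild type in genotype, and both groups were transiently transfected with plasmids. In these plasmids the CAG promoter, which is active in most cell types, drove the effector. By the labels cells were harvested 48 h after transfection. A later time point is stated for RNA-seq in the study, so that the time is uncertain. The labels call S7 an additional crRNA and WT_S7 the sample to which other groups are compared, and describe the crRNAs in general as targeting C9orf72 or as non-targeting. They do not state what S7 itself targets. The same fit also holds N2V8 and WT cells given a non-targeting crRNA (NTG) or crRNA S13, S3 or S4, and untransfected cells (UT). Since each library is RNA from a whole culture in which an unmeasured share of cells took up plasmid, fewer cells of a type and less RNA per cell cannot be told apart. The effector's own RNA was not analysed here.

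Cas13d enzymes bind a crRNA, are guided by it to a complementary RNA and cut that RNA with a nuclease site made of a pair of HEPN domains. Once the site is switched on by target binding it can also cut other RNAs nearby, which is known as collateral cleavage, and high-fidelity forms were engineered to do less of this. In mammalian cells, cleavage of cellular RNA, whatever enzyme causes it, can engage stress kinases and slow translation. One such route is the integrated stress response, in which phosphorylation of the initiation factor eIF2 favours translation of the transcription factor ATF4, which in turn switches on genes for amino acid synthesis, amino acid transport and tRNA charging.

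Totals of estimated counts were 9546826, 13282222 and 9932377 in the N2V8_S7 libraries and 10908622, 10468420 and 11883863 in the WT_S7 libraries, within the range of 9546826 to 15099153 over the 54 libraries. Ribosomal RNA genes took 2.53, 2.22 and 3.58% of counts in N2V8_S7 and 2.71, 1.76 and 2.37% in WT_S7, so that the groups overlapped in this measure. The labelled line was checked against its markers. All 12 HEK293T line markers passed the filter on low counts, among them LHX1, KRT8, VIM and NEFM, while 1 of 12 kidney tubule and glomerulus markers did (LRP2) and UMOD, AQP2 and SLC12A1 were at 0 in each of the 6 libraries. Of the 12 line markers 1 was called higher and 1 lower in N2V8_S7 (8.33% each, where 10.8 and 9.07% of all genes were). Of 14 blood and immune markers 5 passed the filter, with HBB at 0. Their summed level was 9.60 to 11.7 CPM in N2V8_S7 and 19.8 to 24.5 CPM in WT_S7. Only CD68, a lysosomal membrane protein that non-immune cells also make, was called among those 5, and the part of these markers in the results was not tested. Fibroblast and muscle markers (7 of 14 tested, 0 higher and 2 lower, COL1A2 and TNNT2 at 0) summed to 30.8 to 34.7 CPM in N2V8_S7 and 42.8 to 51.5 CPM in WT_S7. Neuronal markers (10 of 16 tested, 3 higher and 1 lower, DBH at 0) summed to 82.5 to 93.7 CPM in N2V8_S7 and 87.1 to 89.6 CPM in WT_S7. One library of another group (N2V7_S4 replicate 2) stood apart from all others, with a residual SD of 0.523 against at most 0.383 elsewhere. It is not part of any comparison below but enters the shared fit, and leaving it out gave 3128 calls for N2V8_S7 against WT_S7 in place of 3053.

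The first comparison asks what differs between cells carrying the high-fidelity and the native enzyme when both are given S7. Every called gene in the lists of integrated stress response targets and p53 targets was higher in N2V8_S7. Every called gene in the lists of replication-dependent histones, heat shock chaperones and nucleolar ribosome assembly factors was lower, and so were most called growth-factor-induced genes. With 1 library left out, some calls went the other way. Histones had 1 higher and 9 lower without N2V8_S7 replicate 2, and chaperones 1 higher and 10 lower without N2V8_S7 replicate 3. Nucleolar factors had 1 higher and 25 lower without WT_S7 replicate 1. The p53 list had 1 lower gene without WT_S7 replicate 1 or 2, and without N2V8_S7 replicate 2 or 3. Levels are given as CPM, which are counts scaled to a common library size by TMM, and differences as the log2 difference N2V8_S7 minus WT_S7 ± SE from edgeR's quasi-likelihood fit. A gene counted as called when the groups differed by more than 5/4-fold either way with an adjusted p under 0.05. Of 15378 genes tested, 1658 were called higher in N2V8_S7 (10.8%) and 1395 lower (9.07%), 3053 in all. The change exceeded 2-fold in 354 of those called higher and 190 of those called lower. The median log2 difference over all genes was 0.00. The N2V8_S7 and WT_S7 libraries did not overlap in CPM for 6315 genes, 41.1% of those tested, and this share is the background for every statement below that the libraries of 1 gene did not overlap.

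C9orf72 (chr9:27546546-27573866, GRCh38), the gene at which the study's crRNAs were aimed, encodes a protein of endosomal and autophagy trafficking. It had 28.3, 30.4 and 27.4 CPM in the N2V8_S7 libraries, against 25.6, 24.1 and 24.1 CPM in the WT_S7 libraries. The libraries did not overlap, but the log2 difference of 0.23 ± 0.10 (95% interval 0.04 to 0.42, edgeR adjusted p = 0.074) did not pass the test. With NTG the N2V8 minus WT difference was -0.14, and the difference between the S7 and NTG values (0.37 ± 0.13, edgeR adjusted p = 0.031) was called. Its transcript variants were summed in the deposited table and could not be told apart. Of the proteins that form a complex with it, SMCR8 had 41.1, 41.6 and 43.5 CPM in the N2V8_S7 libraries, against 54.8, 55.6 and 56.7 CPM in the WT_S7 libraries, and was called lower (-0.41 ± 0.08, edgeR adjusted p = 4.1e-05). WDR41, the remaining subunit, had 145, 150.4 and 139 CPM with N2V8 and 124, 146 and 127 CPM with WT. Its libraries overlapped and its difference of 0.13 ± 0.05 did not pass (edgeR adjusted p = 0.052).

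Among the 12 largest rises, INPP5D (SHIP1, a phosphatase of inositol lipids best known from blood cells) moved most. It had 20.03, 20.7 and 17 CPM in the N2V8_S7 libraries, against 2.23, 1.77 and 1.75 CPM in the WT_S7 libraries, a 10.04-fold difference (3.33 ± 0.19, edgeR adjusted p = 4.8e-21). DDB2, a p53-induced subunit of the complex that recognises ultraviolet damage in DNA, had 64.8, 61 and 63.5 CPM in the N2V8_S7 libraries, against 20.7, 15.9 and 22.6 CPM in the WT_S7 libraries (1.66 ± 0.11, edgeR adjusted p = 7.6e-17). For both genes each N2V8_S7 library stood above every WT_S7 library, as the naming rule required. INHBE, which encodes the activin E subunit and responds to the integrated stress response, had 20.9, 23.5 and 27.4 CPM with N2V8 and 7.07, 5.50 and 9.66 CPM with WT (1.66 ± 0.16). CYP1A1, a cytochrome P450 induced through the aryl hydrocarbon receptor, had 8.26, 6.57 and 7.63 CPM with N2V8 and 1.58, 2.95 and 2.41 CPM with WT (1.68 ± 0.21). OVGP1, an oviductal glycoprotein, had 11.4, 12.1 and 11.3 CPM with N2V8 and 3.72, 1.87 and 3.496 CPM with WT (1.92 ± 0.19). The long non-coding RNA PVT1 (1.99 ± 0.17), the zinc-finger gene ZNF79 (1.68 ± 0.14) and CCDC121 (1.62 ± 0.17), whose role is little known, were higher as well. The other 4 share sequence with near-identical copies, so that the counting could have divided reads between them: the pseudogenes ASNSP1 (2.05 ± 0.18), ZNF767P (1.90 ± 0.19) and CCT6P3 (1.84 ± 0.18), and LRRC37A2 (1.59 ± 0.17). The parent gene of ASNSP1 is ASNS, at 891 ± 96.9 CPM in N2V8_S7 and 381 ± 12.4 CPM in WT_S7 (SD, n = 3 each), far above its copy.

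Falls were led by DHRS2, a mitochondrial and nuclear short-chain dehydrogenase. DHRS2 had 1.55, 1.85 and 2.48 CPM in the N2V8_S7 libraries, against 34.3, 34 and 28.8 CPM in the WT_S7 libraries, 16.5-fold lower (-4.04 ± 0.24, edgeR adjusted p = 2.5e-20). SGK1, a serum- and glucocorticoid-induced kinase, had 6.61, 6.35 and 6.84 CPM in the N2V8_S7 libraries, against 43.2, 49.3 and 48 CPM in the WT_S7 libraries, 7.10-fold lower (-2.83 ± 0.14, edgeR adjusted p = 4.8e-23). In neither gene did any N2V8_S7 library come near the lowest WT_S7 library, though lack of overlap was itself required by the naming rule. DERL3, which serves the degradation of misfolded proteins of the endoplasmic reticulum, had 3.30, 4.13 and 5.85 CPM with N2V8 and 18, 21.1 and 15.9 CPM with WT (-2.05 ± 0.18). CGA, the alpha subunit shared by the glycoprotein hormones, had 4.85, 4.28 and 7.63 CPM with N2V8 and 21.7, 20.3 and 24 CPM with WT (-2.00 ± 0.22). CD68 had 3.92, 4.28 and 5.15 CPM with N2V8 and 14, 12.4 and 12.3 CPM with WT (-1.53 ± 0.20). DYNLT2, a light chain of the dynein motor, had 2.37, 1.70 and 1.68 CPM with N2V8 and 7.72, 9.52 and 8.32 CPM with WT (-2.16 ± 0.25). SYT11, a synaptotagmin of vesicle traffic (-1.47 ± 0.10), and POLR1G, a subunit of RNA polymerase I whose gene overlaps its neighbours (-1.48 ± 0.13), complete the set together with 4 histone genes. Those are the linker histone H1-2, with 26.1, 26.7 and 42.5 CPM with N2V8 and 138, 144 and 148 CPM with WT (-2.19 ± 0.13), H2BC5 (-1.90 ± 0.16), H2AC18 (-1.74 ± 0.14), which has a near-identical neighbouring copy, and H2BC12 (-1.50 ± 0.07).

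**Figure D1:**
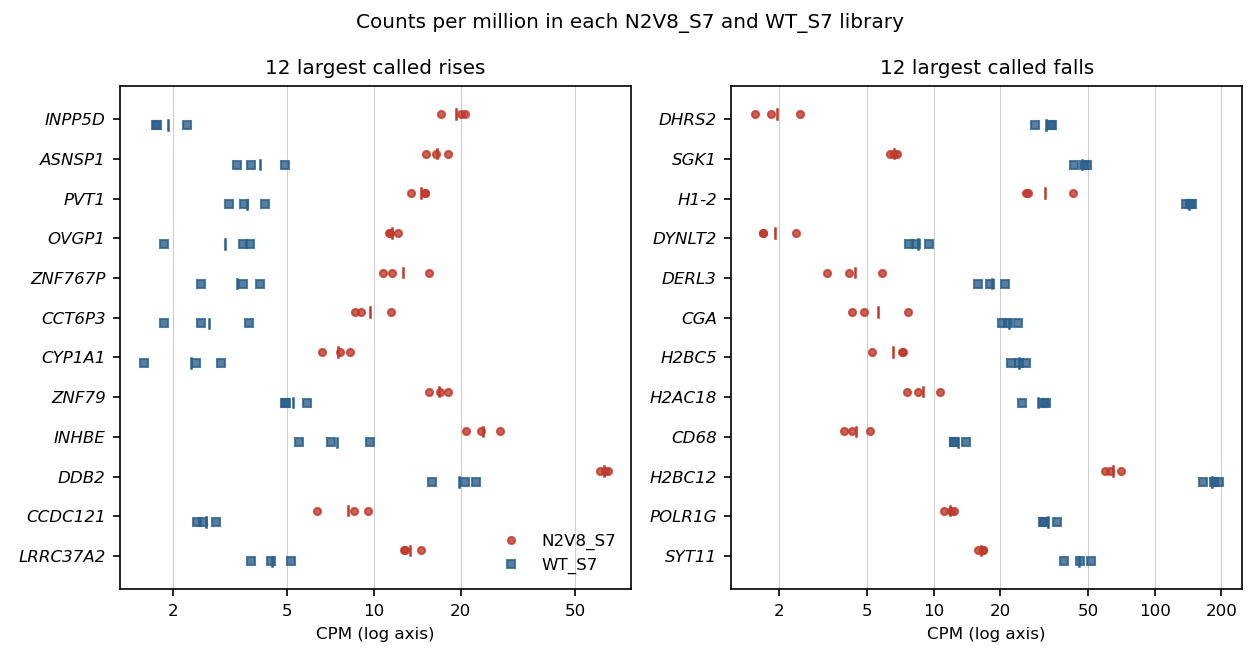
Level of the 12 genes with the largest rises and the 12 with the largest falls in each library, in CPM on a log axis, N2V8_S7 libraries and WT_S7 libraries as separate points. The 3 N2V8_S7 points lie on 1 side of the 3 WT_S7 points for each gene, a condition of the naming rule, with the widest gaps for DHRS2, INPP5D and SGK1.

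Most targets of the integrated stress response were higher in N2V8_S7. Of 48 tested members of this list, 30 were called higher (62.5%, where 10.8% of all genes were) and 0 lower, with a median log2 difference of 0.51 where that of all genes was 0.00. Their summed level was 8944 to 9763 CPM in N2V8_S7 and 7029 to 7188 CPM in WT_S7. Metabolic enzymes and transporters were among them. PCK2, which makes phosphoenolpyruvate in mitochondria, had 123, 137 and 158 CPM in the N2V8_S7 libraries, against 55.3, 55.4 and 52.5 CPM in the WT_S7 libraries (1.35 ± 0.13, edgeR adjusted p = 2.01e-10). SLC7A11, which imports cystine in exchange for glutamate, had 43.6, 47.5 and 57.2 CPM with N2V8 and 26.4, 22.2 and 29.97 CPM with WT (0.91 ± 0.19). CHAC1, which degrades glutathione, had 35.8, 43 and 49.2 CPM with N2V8 and 20.9, 18.2 and 23.8 CPM with WT (1.01 ± 0.13). Regulators and secreted factors were higher too. ATF5, a transcription factor of the same family as ATF4, had 19.9, 23.5 and 28.8 CPM with N2V8 and 12.4, 15 and 11.5 CPM with WT (0.90 ± 0.24). NUPR1, a small stress-induced chromatin protein, had 9.70, 9.74 and 9.22 CPM with N2V8 and 2.70, 3.34 and 3.58 CPM with WT (1.57 ± 0.21). GDF15, a secreted stress hormone, had 6.19, 4.72 and 5.75 CPM with N2V8 and 1.86, 1.67 and 2.08 CPM with WT (1.55 ± 0.26). The largest difference in the list was that of FGF21 (1.85 ± 0.57), at 1.34, 0.664 and 1.09 CPM with N2V8 and 0.372, 0.0982 and 0.333 CPM with WT, but it lost its call when either of 2 libraries (WT_S7 replicate 2, N2V8_S7 replicate 1) was left out. Chosen after their values were seen, ASNS, the enzyme that makes asparagine (1.22 ± 0.12), DDIT3, the transcription factor CHOP (1.02 ± 0.18), TRIB3, a pseudokinase that restrains the pathway (0.79 ± 0.16), and PSAT1, of serine synthesis (0.90 ± 0.08), were also called higher.

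The enzymes that charge tRNAs with amino acids moved less uniformly. Of 40 aminoacyl-tRNA synthetases and partner proteins tested, 10 were called higher (10.8% of all genes) and 2 lower (9.07%), with a median of 0.12. The cytosolic cysteine enzyme CARS1 had 128, 135 and 143 CPM in the N2V8_S7 libraries, against 66.5, 57.1 and 65.5 CPM in the WT_S7 libraries (1.10 ± 0.07, edgeR adjusted p = 1.5e-18), and the tryptophan enzyme WARS1 (0.71 ± 0.07) and the mitochondrial phenylalanine enzyme FARS2 (0.77 ± 0.15) were higher. The mitochondrial glutamate enzyme EARS2 (-0.51 ± 0.08) and EEF1E1, a scaffold of the multi-enzyme synthetase complex (-0.46 ± 0.11), were lower.

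Promoters of both lists were read in the RefSeq table for GRCh38.p14, which holds 250 bases before and 50 after each start site. It gave a promoter for 40 of the 48 integrated stress response targets and 33 of the 40 synthetase genes. TTGCATCA, the core of the element at which dimers of ATF4 and a C/EBP factor bind, was searched on both strands. It was present in 7 of those 40 (17.5%) and in 6 of those 33 (18.2%), against 0.866% of all 35116 promoters in the table and 0.727% of the 12103 tested genes that had one. Of the 7 stress response genes with the match, 5 were called higher and 2 were not called, and of the 33 without it 20 were called higher. Of the 6 synthetase genes with the match, 4 were called higher and 2 were not called, and of the 27 without it 4 were called higher and 2 lower. A match is a description of letters and not of binding. The stress response list was made of targets of this pathway, and the synthetase list was chosen with earlier results of these data known. Matches are letters of the genome, so that neither excess over all promoters is a result of these data. The windows below are those of 8 genes with the match that were called higher, read 5′ to 3′ on the gene's strand with the match in capitals.
CHAC1 promoter, chr15:40953238-40953293 (+ strand): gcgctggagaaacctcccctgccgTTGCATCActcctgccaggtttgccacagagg
CEBPG promoter, chr19:33374047-33374102 (+ strand): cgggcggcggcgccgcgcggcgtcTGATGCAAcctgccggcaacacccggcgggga
SLC1A4 promoter, chr2:64989368-64989418 (+ strand): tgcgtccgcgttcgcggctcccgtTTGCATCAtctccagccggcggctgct
JDP2 promoter, chr14:75427982-75428037 (+ strand): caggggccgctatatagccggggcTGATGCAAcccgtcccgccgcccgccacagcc
CARS1 promoter, chr11:3057404-3057449 (- strand): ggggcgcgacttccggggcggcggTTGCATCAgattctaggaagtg
MARS1 promoter, chr12:57488040-57488087 (+ strand): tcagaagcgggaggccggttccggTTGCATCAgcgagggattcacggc
IARS1 promoter, chr9:92293679-92293734 (- strand): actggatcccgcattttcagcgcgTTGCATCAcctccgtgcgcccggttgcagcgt
TARS1 promoter, chr5:33440943-33440984 (+ strand): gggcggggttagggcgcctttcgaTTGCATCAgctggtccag
The first 4 belong to stress response targets and the last 4 to cytosolic synthetases. The match shown lay 209 bases before the annotated start in CHAC1 and 42 before it in CEBPG, and 2 bases before it in CARS1. In the same order the log2 differences of the 8 genes were 1.01, 0.61, 0.57, 0.61, 1.10, 0.52, 0.42 and 0.40.

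The direction in this list differed with NTG in place of S7. With NTG, 2 of the same 48 genes were called higher in N2V8 than in WT (12% of all genes were) and 33 lower (11.7% of all genes), with a median of -0.56. The other crRNAs gave 1 higher and 4 lower with S13, 1 and 19 with S3, and 1 and 6 with S4. Over all 15378 genes they gave 244 higher and 268 lower, 1187 and 1061, and 450 and 689 in the same order. The test of the difference between the S7 and NTG values, S7 minus NTG, called 41 of the 48 higher (15% of all genes) and 0 lower (15.5%). PCK2 differed by -1.36 with NTG, and S7 minus NTG was 2.71 ± 0.18 (edgeR adjusted p = 2.7e-14). ATF5 differed by -1.85 with NTG, and S7 minus NTG was 2.75 ± 0.34. GDF15 was an exception, since its difference with NTG was 0.77 and S7 minus NTG was not called. The synthetases had 10 higher and 10 lower with NTG, and S7 minus NTG called 16 higher and 10 lower, where 12 and 11.7% of all genes were called with NTG and 15 and 15.5% in S7 minus NTG.

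**Figure D2:**
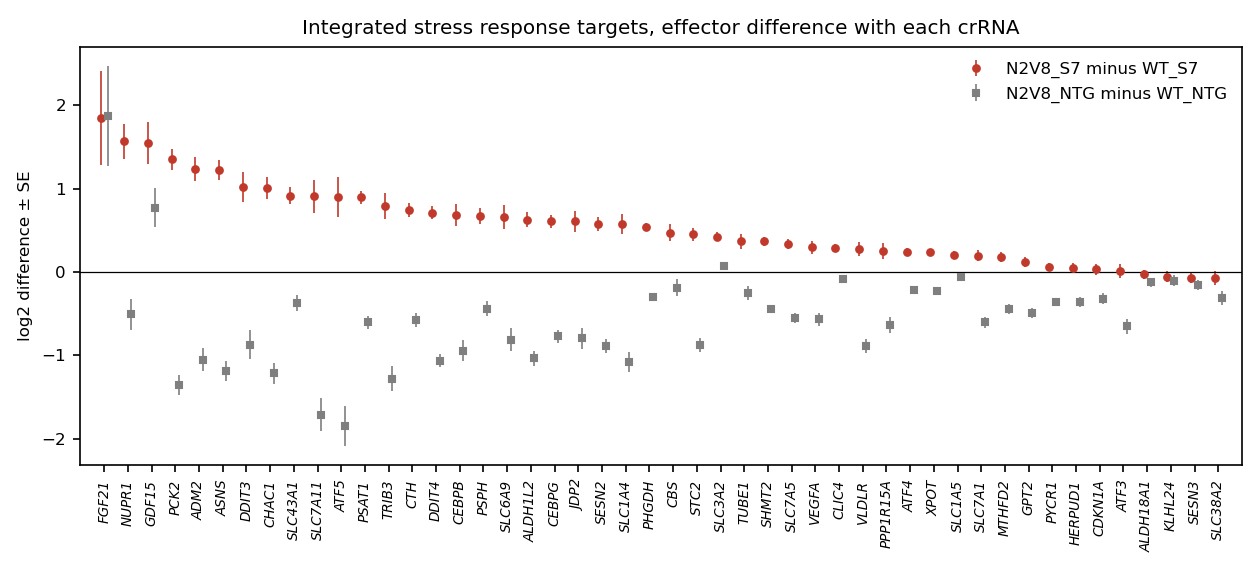
Log2 difference between N2V8 and WT ± SE for the 48 tested integrated stress response targets, with crRNA S7 and with the non-targeting crRNA NTG. With S7 30 genes were called higher and 0 lower, with NTG 2 higher and 33 lower.

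Targets of p53, the transcription factor that DNA damage and nucleolar stress stabilise, were higher in N2V8_S7 in 14 of 36 tested members and lower in 0 (10.8 and 9.07% of all genes), with a median of 0.30. SPATA18, which acts in mitochondrial quality control, had 12.5, 15.6 and 14.2 CPM with N2V8 and 5.95, 5.30 and 5.49 CPM with WT (1.34 ± 0.13, edgeR adjusted p = 8.2e-12). EDA2R, a receptor of the tumour necrosis factor family, had 17, 18.3 and 15.7 CPM with N2V8 and 7.44, 6.97 and 6.49 CPM with WT (1.29 ± 0.13). DDB2, given above, led the list. HEK293T cells carry the SV40 large T antigen, which binds p53. With NTG 11 members were higher (12% of all genes) and 7 lower (11.7%), and S7 minus NTG called 14 higher (15%) and 3 lower (15.5%). The rise was not particular to S7, since N2V8 minus WT had 16 higher and 2 lower with S3 and 14 higher and 0 lower with S4. With S13 it had 2 higher and 1 lower. Of all genes 14.6% were called either way with S3, 7.41% with S4 and 3.33% with S13. Split by direction, 1187 of all 15378 genes were higher and 1061 lower with S3, 450 and 689 with S4, and 244 and 268 with S13.

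Heat shock chaperones fold proteins and are induced by the factor HSF1. Their list was compiled as cytosolic but also held members of other compartments, such as mitochondrial HSPE1. Of 29 tested members 12 were lower (41.4%, where 9.07% of all genes were) and 0 higher (10.8% of all genes), with a median of -0.31. HSPA6, a strictly inducible HSP70, had 0.103, 0.295 and 0.694 CPM in the N2V8_S7 libraries, against 5.30, 5.50 and 4.41 CPM in the WT_S7 libraries (-3.77 ± 0.45, edgeR adjusted p = 2.02e-09). Its level was low in all 6 libraries. DNAJB4, an HSP40 co-chaperone, had 30.1, 25.8 and 24.3 CPM with N2V8 and 41.6, 47.8 and 50.3 CPM with WT (-0.81 ± 0.10), and HSPE1, the mitochondrial partner of HSP60, had 123, 108 and 107 CPM with N2V8 and 181, 195 and 149 CPM with WT (-0.64 ± 0.10). Abundant members chosen after their values were seen were HSPA8, the constitutive HSP70, with 876, 850.1 and 796 CPM with N2V8 and 1261, 1348 and 1150.3 CPM with WT (-0.58 ± 0.07), and HSP90AA1, the inducible HSP90, with 2008, 1848 and 1726 CPM with N2V8 and 2466, 2531 and 2260.3 CPM with WT (-0.38 ± 0.06). HSPA1B (-0.55 ± 0.17) has a near-identical copy, HSPA1A (-1.56 ± 0.89, not called), and the counting could have divided reads between them. With NTG 11 chaperones were higher (12% of all genes) and 1 lower (11.7%) in N2V8 than in WT, and S7 minus NTG called 2 higher (15%) and 19 lower (15.5%).

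GAANNTTC, a pair of facing core units of the heat shock element bound by HSF1, was searched in the same promoter table on both strands. It was present in 14 of the 26 chaperone genes that had a promoter (53.8%), against 6.77% of all promoters and 6.63% of tested genes with one. Of those 14, 7 were called lower and 7 were not called, and of the 12 without it 4 were called lower. The list was made of heat shock chaperones, so that its excess over all promoters is no result of these data. Windows are shown for 5 called genes, with the match in capitals.
HSPA6 promoter, chr1:161524336-161524391 (+ strand): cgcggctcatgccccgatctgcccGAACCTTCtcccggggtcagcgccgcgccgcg
HSPA8 promoter, chr11:123062335-123062386 (- strand): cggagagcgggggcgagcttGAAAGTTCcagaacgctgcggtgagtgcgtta
HSPA1B promoter, chr6:31827609-31827664 (+ strand): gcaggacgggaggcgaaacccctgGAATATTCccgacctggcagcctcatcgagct
HSP90AA1 promoter, chr14:102087096-102087151 (- strand): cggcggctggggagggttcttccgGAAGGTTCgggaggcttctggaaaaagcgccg
CHORDC1 promoter, chr11:90223223-90223278 (- strand): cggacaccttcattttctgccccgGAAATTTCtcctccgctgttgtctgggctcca
CHORDC1 encodes a co-chaperone of HSP90 and differed by -0.51 ± 0.09. The match of HSP90AA1 lay 83 bases and that of HSPA1B 105 bases before the annotated start. The other 3 genes held more than 1 match, at 230 and 50 bases before the start in HSPA8, 180 and 69 in HSPA6, and 205, 60 and 50 in CHORDC1.

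Replication-dependent histone genes, whose transcripts normally end in a stem-loop without a poly(A) tail and are made in S phase, were lower in 10 of 29 tested members (34.5%, where 9.07% of all genes were) and higher in 0 (10.8% of all genes), with a median of -0.31. Their summed level was 181 to 219 CPM in N2V8_S7 and 466 to 503 CPM in WT_S7. H1-2, H2BC5, H2AC18 and H2BC12 are given above. H2AC6 had 0.619, 0.443 and 1.49 CPM with N2V8 and 5.58, 6.09 and 3.83 CPM with WT (-2.63 ± 0.34, edgeR adjusted p = 1.9e-08). H3C4 (-2.48 ± 0.94) and H2AC15 (-2.75 ± 0.91) were called lower near the detection floor and lost the call when 1 library or another was left out. The libraries were made with an mRNA kit, so that only histone transcripts it captures were counted. S-phase genes did not move one way. Of 54 tested genes of DNA replication and S phase, 7 were higher (13%) and 8 lower (14.8%), shares near those of all genes and so no result about this list. Members called included MCM5, of the replicative helicase (0.64 ± 0.07), and LIG1, a DNA ligase (0.80 ± 0.11), which were higher, and the cyclins CCNE2 (-0.87 ± 0.10) and CCNE1 (-0.60 ± 0.12), which were lower. Without WT_S7 replicate 2 the list had 8 higher and 7 lower. Of 20 genes of histone mRNA transcription and 3′ processing, 1 was higher (5%) and 2 lower (10%), where 10.8% of all genes were higher and 9.07% lower.

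ATTTGCAT, the octamer bound by OCT1 in H2B promoters, was present in 10 of the 28 histone genes with a promoter (35.7%), against 1.77% of all promoters and 1.95% of tested genes with one. It was searched on both strands and overlapped a TTGCATCA match in 18 promoters of the table. Of the 10, 4 were called lower and 6 were not called, and of the 18 without it 6 were called lower. The 10 genes are not 10 separate sites. H2AC6 and H2BC4 share the same match on opposite strands, as do H2AC11 and H2BC11, and H2AC17 and H2BC17. Of the first pair H2AC6 was called lower and H2BC4 was not called. The list holds H2B genes, so that its excess over all promoters is no result of these data. The windows show 2 genes that were called lower, H2BC12 and H2BC21, and 1 that was not, H2BC18.
H2BC12 promoter, chr6:27146873-27146928 (- strand): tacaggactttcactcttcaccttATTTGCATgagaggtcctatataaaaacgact
H2BC21 promoter, chr1:149886697-149886752 (- strand): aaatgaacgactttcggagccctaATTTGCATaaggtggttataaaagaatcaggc
H2BC18 promoter, chr1:149812388-149812443 (- strand): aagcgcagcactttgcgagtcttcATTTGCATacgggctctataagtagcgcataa
The match lay 46 to 49 bases before the annotated start in all 3 of these H2B genes. Their log2 differences were -1.50 ± 0.07, -0.92 ± 0.13 and -0.30 ± 0.45 in that order.

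Many genes that growth factors or tension of the cytoskeleton induce within minutes to hours were lower in N2V8_S7. Of 45 AP-1 and immediate early genes tested, 1 was higher and 19 were lower (10.8 and 9.07% of all genes), with a median of -0.19. SPRY4, an inhibitor of receptor tyrosine kinase signalling, had 0, 0.0738 and 0.297 CPM with N2V8 and 1.12, 1.28 and 1.17 CPM with WT (-3.20 ± 0.67, edgeR adjusted p = 0.000197), close to the detection floor. EGR2, a zinc-finger transcription factor, had 0.723, 0.959 and 0.495 CPM with N2V8 and 2.98, 3.34 and 1.66 CPM with WT (-1.82 ± 0.41). CCN2, a matricellular protein and a standard target of YAP, had 8.05, 7.53 and 8.32 CPM in the N2V8_S7 libraries, against 22.6, 17.4 and 21.3 CPM in the WT_S7 libraries (-1.36 ± 0.13, edgeR adjusted p = 8.2e-12). KLF10, a transcription factor induced by TGF-beta, was the exception at 0.41 ± 0.07. Of 28 SRF and YAP targets tested, 1 was higher and 12 were lower (42.9%), with a median of -0.32. THBS1, thrombospondin, had 1.65, 1.40 and 1.39 CPM with N2V8 and 3.81, 2.65 and 3.83 CPM with WT (-1.22 ± 0.35), CNN1, calponin, differed by -1.20 ± 0.31, and ACTA2, smooth muscle actin, was higher at 1.39 ± 0.12. CCN2 belongs to both lists. With NTG the immediate early genes had 4 higher (12% of all genes) and 10 lower (11.7%), and S7 minus NTG called 9 higher (15%) and 14 lower (15.5%).

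Nucleolar factors that assemble ribosomes from ribosomal RNA and protein were lower in 28 of 71 tested members (39.4%, where 9.07% of all genes were) and higher in 0 (10.8% of all genes), with a median of -0.28. RRP12, a factor of ribosome assembly and export, had 31.7, 37 and 35.1 CPM in the N2V8_S7 libraries, against 85.9, 77.8 and 71 CPM in the WT_S7 libraries (-1.17 ± 0.08, edgeR adjusted p = 6.4e-17). NOP16, a large-subunit assembly factor, had 21.3, 21 and 20.2 CPM with N2V8 and 37.7, 40.6 and 32.5 CPM with WT (-0.82 ± 0.11), and UTP25, of the small-subunit processome, had 34.9, 40.3 and 38.7 CPM with N2V8 and 66.6, 69 and 63.1 CPM with WT (-0.80 ± 0.08). With NTG the order was the other way, with 29 higher (12% of all genes) and 1 lower (11.7%), and S7 minus NTG called 0 higher (15%) and 54 lower (15.5%). Few genes of the ribosomal proteins themselves were called. Of 79 cytosolic ribosomal protein genes 0 were higher and 1 was lower (RPS26), a total that ran between 0 and 2 when 1 library was left out, and of 78 mitochondrial ones 7 were higher (8.97%) and 3 lower (3.85%), where 10.8% of all genes were higher and 9.07% lower. The mitochondrial ones had 43 higher and 0 lower with NTG, and S7 minus NTG called 1 higher and 40 lower.

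**Figure D3:**
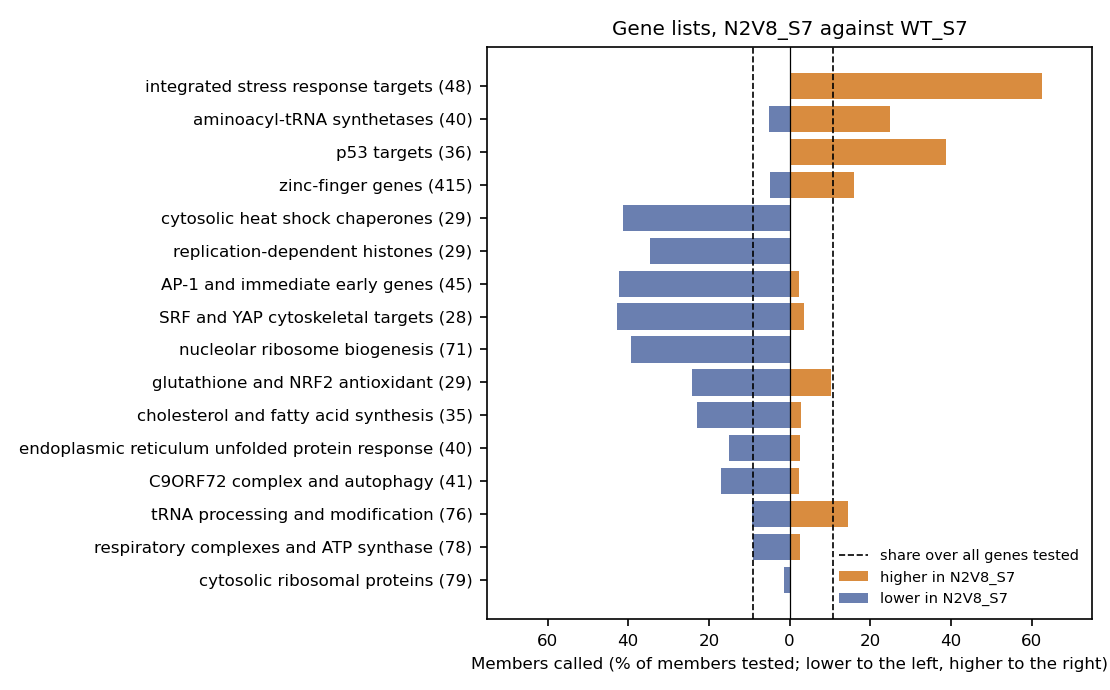
Percent of the tested members of 16 gene lists that were called higher or lower in N2V8_S7 than in WT_S7. Dashed lines mark the same percent over all 15378 genes tested, 10.8% higher and 9.07% lower. The integrated stress response list has 62.5% of members higher and none lower, whereas histones, chaperones and ribosome biogenesis factors have members lower and none higher.

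Other stress and metabolic lists held smaller shares of called genes than the integrated stress response list. Their counts stand against 10.8% of all genes higher and 9.07% lower. Of 40 endoplasmic reticulum unfolded protein response genes 1 was higher, the transcription factor XBP1 (0.42 ± 0.05), and 6 were lower (15%), with DERL3 (above), SDF2L1 (-0.52 ± 0.10) and the chaperone HSPA5 (-0.42 ± 0.07) the largest falls. Of 29 glutathione and NRF2 antioxidant genes 3 were higher (10.3%) and 7 lower (24.1%). The quinone reductase NQO1 had 3.30, 5.39 and 4.66 CPM with N2V8 and 10.05, 10.6 and 9.41 CPM with WT (-1.15 ± 0.17) and the thioredoxin reductase TXNRD1 differed by -0.63 ± 0.05, while 2 of the 3 higher members, SLC7A11 and CHAC1, also belong to the integrated stress response list. Of 35 genes of cholesterol and fatty acid synthesis 1 was higher and 8 lower (22.9%), among them HMGCS1, an early enzyme of the cholesterol pathway (-0.69 ± 0.12). Of 41 autophagy genes and partners of C9orf72 1 was higher and 7 lower (17.1%), with ATG14, a subunit of the lipid kinase complex that starts autophagosomes, at 10.2, 9.74 and 8.03 CPM with N2V8 and 16, 14.6 and 16.2 CPM with WT (-0.74 ± 0.11). Of 29 members of the BCL2 family and apoptosome 0 were higher and 5 lower (17.2%). That total was 2 without WT_S7 replicate 1 or N2V8_S7 replicate 2, and 3 without WT_S7 replicate 3 or N2V8_S7 replicate 1. Of 18 NF-kB targets 1 was higher and 4 lower (22.2%), with the adhesion receptor ICAM1 at -1.21 ± 0.34, a total of 5 that was 3 without replicate 1 or 3 of WT_S7 or replicate 2 or 3 of N2V8_S7. Of 36 interferon-stimulated genes 2 were higher (5.56%) and 4 lower (11.1%), with BST2, which tethers budding virions, at -1.29 ± 0.29. The list has no settled direction, since it had 4 higher and 2 lower without WT_S7 replicate 2, 4 higher and 4 lower without N2V8_S7 replicate 1, and 1 higher and 2 lower without N2V8_S7 replicate 2. Of 20 eIF2 kinases and ribotoxic stress sensors 0 were higher and 1 was lower (5%), EIF2AK3, and the total was 0 without WT_S7 replicate 3 and 2 without WT_S7 replicate 2 or N2V8_S7 replicate 1. Of 23 glycolysis genes 2 were higher (8.7%), PDK1 (0.75 ± 0.15) and PFKFB4 (0.75 ± 0.17), and 0 lower. Of 30 genes of ID and BMP or activin signalling 2 were higher (6.67%) and 4 lower (13.3%), with INHBE (above) and FST, an activin antagonist (-1.19 ± 0.23), at the ends, and without WT_S7 replicate 3 there were 3 higher and 2 lower. The shares of the endoplasmic reticulum, interferon, eIF2 kinase, glycolysis and BMP lists were near or below those of all genes, so that N2V8_S7 against WT_S7 gave no result about these lists. With NTG the endoplasmic reticulum list had 1 higher (12% of all genes) and 18 lower (11.7%), and S7 minus NTG called 12 higher (15%) and 4 lower (15.5%).

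RNA-processing lists held called genes in both directions, apart from the splicing factors. Over all genes 10.8% were higher and 9.07% lower. Of 67 SR, hnRNP and core splicing factors 0 were higher and 4 lower (5.97%), among them ACIN1 (-0.53 ± 0.06). The splicing list had 1 higher and 6 lower without N2V8_S7 replicate 1, and 1 higher and 3 lower without N2V8_S7 replicate 3. Of 76 tRNA processing and modification genes 11 were higher (14.5%) and 7 lower (9.21%), with the dihydrouridine synthase DUS4L (0.72 ± 0.15) and the methyltransferase partner WDR4 (-0.64 ± 0.14) at the ends. Of 47 RNA decay and surveillance genes 3 were higher (6.38%) and 7 lower (14.9%), with the exosome subunit EXOSC5 at 14.2, 15.9 and 16 CPM with N2V8 and 31.2, 36.7 and 26.3 CPM with WT (-1.02 ± 0.10). Of 27 host genes of small nucleolar RNAs 5 were higher (18.5%) and 6 lower (22.2%), with SNHG9 (-1.66 ± 0.44) and SNHG12 (1.06 ± 0.16) at the ends. Of 17 nuclear long non-coding RNAs 3 were higher and 3 lower (17.6% each). MIAT had 0.826, 0.369 and 0.495 CPM with N2V8 and 3.81, 3.34 and 5.24 CPM with WT (-2.91 ± 0.42), and NEAT1, the scaffold of paraspeckles, differed by -0.40 ± 0.12. Of 38 proteasome subunits 0 were higher and 4 lower (10.5%), and of 52 mitotic genes 5 were higher (9.62%) and 2 lower (3.85%). Of 78 respiratory complex subunits 2 were higher (2.56%) and 7 lower (8.97%). That list had 3 higher and 2 lower without WT_S7 replicate 2, 3 higher and 12 lower without WT_S7 replicate 3, and 3 higher and 4 lower without N2V8_S7 replicate 1. The shares of the splicing, tRNA, RNA decay, proteasome, mitosis and respiratory lists were near or below those of all genes, so that N2V8_S7 against WT_S7 gave no result about these lists. With NTG 26 splicing, 24 tRNA, 23 proteasome, 15 mitosis and 39 respiratory genes were higher in N2V8 (12% of all genes). Lower were 3, 0, 0, 2 and 0 in that order (11.7%). In the same order S7 minus NTG called 2, 2, 0, 2 and 1 higher (15%) and 38, 22, 24, 17 and 44 lower (15.5%). Zinc-finger genes, a family largely of transcriptional repressors, were higher in 66 of 415 tested members and lower in 20 (10.8 and 9.07% of all genes), with a median of 0.10. With NTG 17 were higher (12% of all genes) and 107 lower (11.7%), and S7 minus NTG called 126 higher (15%) and 19 lower (15.5%).

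The second comparison asks which of these differences are also present between the effectors without S7. N2V8_NTG and WT_NTG share no library with N2V8_S7 or WT_S7. With NTG 1838 genes were called higher in N2V8 (12%) and 1802 lower (11.7%). Across the 15378 genes the N2V8 minus WT difference with S7 and that with NTG had a Pearson r of 0.0578 and a Spearman rho of -0.0100, given as a description over genes, which are not independent. Both comparisons called 904 genes, 29.6% of the S7 calls and 24.8% of the NTG calls, of which 424 had the same direction and 480 the opposite. The test of S7 minus NTG called 2307 genes higher (15%) and 2390 lower (15.5%). Of the 3053 genes called with S7, 1809 (59.3%) passed the test of S7 minus NTG in the same direction. Both tests use the N2V8_S7 and WT_S7 libraries, so that this count is no independent support.

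**Figure D4:**
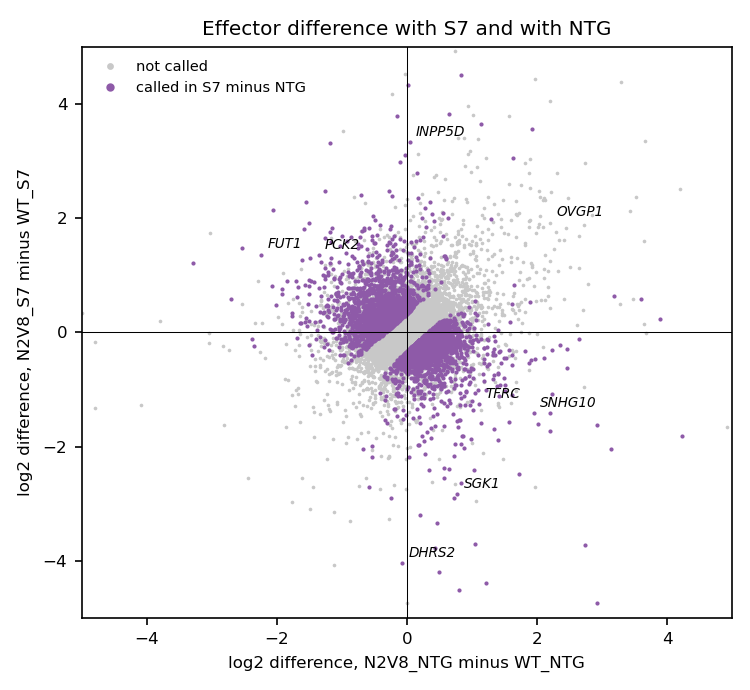
Log2 difference between N2V8 and WT with crRNA S7 (vertical) against that with the non-targeting crRNA NTG (horizontal), 1 point for each tested gene. Coloured points were called in S7 minus NTG, 8 genes are named, and 40 genes lie outside the axes. The points do not line up along the diagonal (Pearson r 0.0578), and DHRS2 (-4.04 with S7, -0.07 with NTG) and INPP5D (3.33 with S7, 0.04 with NTG) lie near 0 on the horizontal axis.

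The largest differences in the test of S7 minus NTG were FUT1, AKNA, INPP5D, ATF5 and PCK2 upward and DHRS2, SGK1, DYNLT2, MIR17HG and TFRC downward. FUT1, which makes the H blood group antigen, had 5.78, 5.83 and 9.22 CPM in the N2V8_S7 libraries, against 3.35, 1.87 and 2.75 CPM in the WT_S7 libraries (1.36 ± 0.25) and differed by -2.24 with NTG, giving S7 minus NTG of 3.60 ± 0.35. AKNA, a transcription and centrosome factor, was not called with S7 (0.59 ± 0.23, edgeR adjusted p = 0.058) and differed by -2.71 with NTG, giving 3.29 ± 0.33. INPP5D differed by 0.04 with NTG, giving 3.28 ± 0.25. These 3 genes therefore reached a like value of S7 minus NTG from different pairs of differences. TFRC, the transferrin receptor through which cells take up iron, had 108, 112 and 139.7 CPM in the N2V8_S7 libraries, against 294, 273 and 291 CPM in the WT_S7 libraries (-1.26 ± 0.19) and differed by 1.12 with NTG, so that S7 minus NTG was -2.37 ± 0.27. MIR17HG, the host transcript of the miR-17-92 cluster, differed by -1.37 with S7 and 1.02 with NTG. DHRS2 differed by -0.07 with NTG and SGK1 by 0.77, giving S7 minus NTG of -3.97 ± 0.47 and -3.60 ± 0.22. Of the genes named by size, OVGP1 (2.21), ZNF767P (2.04), CCT6P3 (1.45) and CYP1A1 (1.05) were higher with NTG also, and S7 minus NTG was not called for any of these 4.

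The third comparison sets S7 against NTG within each effector. These contrasts use the same N2V8_S7 and WT_S7 libraries as above, so that they are not independent of the first comparison and are given side by side with it. Within N2V8, 670 genes were higher with S7 than with NTG (4.36%) and 579 lower (3.77%). Within WT, 1511 were higher (9.83%) and 1594 lower (10.4%). Integrated stress response targets had 28 of 48 higher and 0 lower within N2V8 (median 0.46), and 0 higher and 34 lower within WT (median -0.62). Histones had 4 of 29 higher and 0 lower within N2V8, and 16 higher and 0 lower within WT (median 1.34). Chaperones had 0 of 29 higher and 10 lower within N2V8, and 16 higher and 0 lower within WT. Ribosome biogenesis factors had 0 of 71 higher and 19 lower within N2V8, and 39 higher and 0 lower within WT. Targets of p53 had 2 of 36 higher and 1 lower within N2V8, and 0 higher and 11 lower within WT. SGK1 differed by -0.31 within N2V8 and 3.29 within WT, and DHRS2 by 0.96 and 4.93 in the same order. TFRC differed by -1.10 within N2V8 and 1.27 within WT. INPP5D differed by 1.00 within N2V8 and -2.29 within WT.

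Levels over all crRNAs place these values. SGK1 was at 6.60 ± 0.245 CPM in N2V8_S7 and 46.8 ± 3.24 CPM in WT_S7 (SD, n = 3 each here and below), at 8.21 ± 1.34 and 4.76 ± 0.704 CPM in N2V8 and WT with NTG, and at 5.12 ± 0.694 CPM in untransfected cells. DHRS2 was at 1.96 ± 0.474 CPM in N2V8_S7 and 32.4 ± 3.09 CPM in WT_S7, and at 0.949 ± 0.132 CPM in untransfected cells. For both genes WT_S7 stood above the untransfected level and N2V8_S7 lay nearer to it. INPP5D was at 19.2 ± 1.93 CPM in N2V8_S7 and 1.92 ± 0.274 CPM in WT_S7, and at 4.14 ± 0.637 CPM in untransfected cells. PCK2 was at 139 ± 17.6 CPM in N2V8_S7, 54.4 ± 1.63 CPM in WT_S7 and 149 ± 0.363 CPM in untransfected cells. DDB2 was at 63.1 ± 1.93, 19.8 ± 3.47 and 46.7 ± 2.58 CPM in the same 3 groups. The share of counts in histone genes was 0.0186 to 0.0226% in N2V8_S7 and 0.0474 to 0.0493% in WT_S7, with 0.0155 to 0.0164% in N2V8_NTG and 0.0133 to 0.0153% in WT_NTG. A higher share in WT was not particular to S7. It was 0.0387 to 0.0430% in WT_S13, 0.0440 to 0.0456% in WT_S3 and 0.0357 to 0.0393% in WT_S4. In N2V8 it was 0.0200 to 0.0203%, 0.0258 to 0.0284% and 0.0166 to 0.0178% with the same crRNAs.

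**Figure D5:**
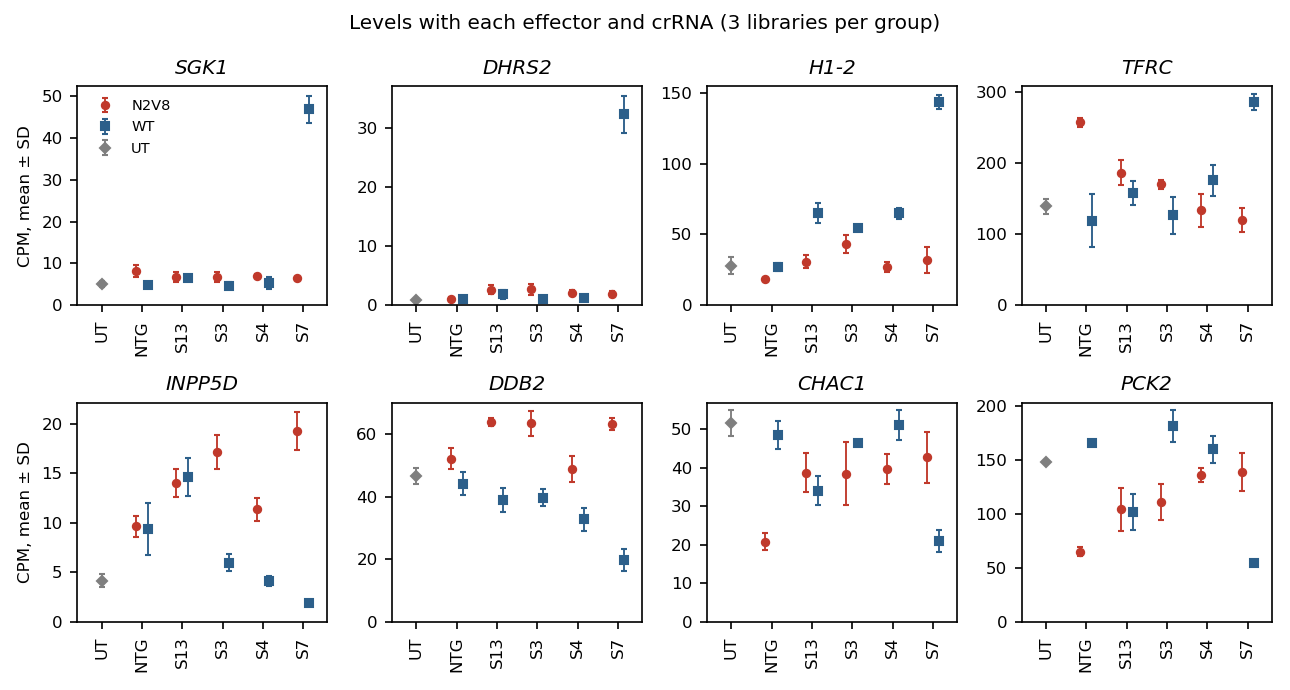
Mean CPM ± SD (3 libraries a group) of 8 genes in untransfected cells (UT) and in N2V8 and WT cells with crRNA NTG, S13, S3, S4 and S7. For SGK1, DHRS2, H1-2 and TFRC the S7 mean is lower in N2V8 than in WT, and for INPP5D, DDB2, CHAC1 and PCK2 it is higher in N2V8.

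With the other crRNAs the same contrast, N2V8 minus WT, called 512 genes with S13 (3.33%), 2248 with S3 (14.6%) and 1139 with S4 (7.41%). The tests of S7 minus S13, S7 minus S3 and S7 minus S4 called 2584 (16.8%), 3555 (23.1%) and 2558 (16.6%). The histone list had 1 higher and 10 lower with S13, 5 higher and 9 lower with S3, and 0 higher and 13 lower with S4, where S7 had 0 higher and 10 lower. Chaperones had 1 higher and 0 lower, 4 and 1, and 0 and 0 in the same order. Ribosome biogenesis factors had 1 higher and 2 lower, 8 and 2, and 3 and 2. Of all genes tested 244 were higher and 268 lower with S13, 1187 and 1061 with S3, and 450 and 689 with S4. SGK1 differed by 0.02 with S13, 0.56 with S3 and 0.38 with S4, and each of the 3 tests against S7 called it lower with S7. INPP5D differed by -0.06, 1.51 and 1.47 in the same order, and DHRS2 by 0.55, 1.30 and 0.73. H2AC18 was the exception among the 12 largest falls. It differed by -1.51, -2.43 and -2.20, with S7 called higher than S3 and neither higher nor lower than S13 or S4.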

How the data were processed

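RNA of HEK293T cells was sequenced from both ends of fragments of stranded mRNA libraries, pooled on 1 lane, and groups were taken from the labels. The authors estimated counts with Salmon (version 1.5.2, submitters' notes, which also name R 4.2.2) on NCBI transcripts of GRCh38 and scaled the estimated counts by transcript length before depositing a table of 38137 genes. A TRUE or FALSE mark (unit: other) deposited beside them shows the 15464 genes the authors kept and was used in 1 alternative only. No column of per-sample values lacked a sample. Libraries of groups not described in the report entered the shared fit only.

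Estimated counts were rounded and analysed in R (version 4.3.3). The filterByExpr function of edgeR (version 4.0.16) with a smallest minimum count of 10 kept 15378 genes, which include 15368 of the authors' set, and the genes removed held 0.0723% of counts. All 54 libraries were scaled by TMM and fitted with edgeR's robust quasi-likelihood F test, 1 term a group and 1 factor of unwanted variation from the residuals (RUVr), with 35 residual degrees of freedom before moderation. The factor took 21.9% of residual variance, and 95.6% of its squared weight lay in N2V7_S4. Benjamini-Hochberg adjustment ran over all genes of a family together: N2V8 minus WT with each of 5 crRNAs, the 4 differences of S7 from the other crRNAs, and S7 minus NTG within each effector. Calls needed a fold change over 5/4 and an adjusted p under 0.05. limma (version 3.58.1) and DESeq2 (version 1.42.0) served alternatives, and the procedure was tested on simulated data. Replicates were described by the study as independent, but the labels do not say so, and p-values measure the spread between these libraries. Replicate pairs differed by more than counting noise, so that none was counted as 1 sample.

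The libraries compared, the genes and the 36 gene lists were chosen with earlier results of these data known. Genes named were C9orf72, SMCR8 and WDR41, the 12 largest called rises and falls (log2 CPM 2 or more on average, no overlap of libraries, a symbol other than a locus number), up to 3 called members of each list each way, and the 5 largest S7 minus NTG differences each way. Promoter sequences and coordinates are those of RefSeq for GRCh38.p14, to which 15254 of the genes tested matched. Sequences of the crRNAs were not used here. Some genes that met these rules are not reported here.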

Additional observations from a re-analysis of the deposited data

Results flagged for a closer look

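The difference between N2V8 and WT cells depended on the crRNA for many genes. By edgeR's test of the difference itself, 4697 of 15378 genes had another N2V8 minus WT value with S7 than with NTG. Among them were 92 of the 135 genes named from the lists. Those 135 genes were named for their S7 values, which this test uses again, so that the count is no independent support. Values below are S7 minus NTG on the log2 scale, and none was explained further.

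Upward, FUT1 stood at 3.60, AKNA at 3.29, INPP5D at 3.28, ATF5 at 2.75 and PCK2 at 2.71. FUT1, AKNA, ATF5 and PCK2 had lower levels in N2V8 than in WT with NTG, whereas INPP5D was not called there (0.04). Of the genes with the largest rises with S7, ASNSP1 stood at 2.57, INHBE at 2.53, LRRC37A2 at 1.45, DDB2 at 1.42, CCDC121 at 1.42, ZNF79 at 1.13 and PVT1 at 0.71. C9orf72 stood at 0.37, with a difference that was not called with either crRNA.

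Downward, DHRS2 stood at -3.97, SGK1 at -3.60, DYNLT2 at -2.88, MIR17HG at -2.39 and TFRC at -2.37. Histone genes followed, with H2BC5 at -2.17, H2AC18 at -2.05, H1-2 at -1.64 and H2BC12 at -1.58. Among the other falls POLR1G stood at -1.67, CGA at -1.46, DERL3 at -1.37, SYT11 at -1.32 and CD68 at -1.19.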

How the results depend on the processing

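For N2V8_S7 against WT_S7 the 3053 calls numbered 2737 to 3018 with each of the 6 libraries left out in turn, 2671 without the RUV factor, 2808 with the compared libraries alone, 2899 with DESeq2, 3131 with limma-trend, 3128 without N2V7_S4 replicate 2 and 3054 with the genes the authors kept. No log2 difference of C9orf72 or of a gene named by rule changed sign, but the majority of calls turned in places. With no minimum fold change there were 2441 higher and 2640 lower with S7 (1658 and 1395 with it), 1253 and 1749 for S7 against NTG within N2V8 (670 and 579), 2658 and 2520 within WT (1511 and 1594) and 1413 and 1399 with S4 (450 and 689). An adjusted p under 0.01 gave 372 higher and 430 lower within N2V8, and adjustment within the comparison gave 138 and 122 with S13 (244 and 268). Counts for NTG and for S7 minus NTG were near even and turned with limma-trend, DESeq2 size factors, no low-count filter and the compared libraries alone, that for NTG also with DESeq2 and that for S7 minus S3 with the compared libraries alone. The majority also turned with no minimum fold change for S13, S3 and S7 minus S13, S3 or S4, and with an adjusted p under 0.01 for S13, S7 against NTG within WT and S7 minus S13, S3 or S4. In the lists, DNA replication, glycolysis and mitosis turned with no minimum fold change. C9orf72 ran between 0.18 and 0.26 without 1 library and stayed under the fold threshold. Genes called in the lists numbered 363 to 384 (383 with all libraries), and S7 minus NTG called 4282 to 4738 (4697). Leaving out 1 library gave 3608 to 3648 calls with NTG, 520 to 526 with S13, 2244 to 2272 with S3 and 1121 to 1149 with S4, 2288 to 2551 for S7 minus S13, 3200 to 3673 for S7 minus S3 and 2200 to 2681 for S7 minus S4, 1132 to 1224 for S7 against NTG within N2V8 and 2713 to 3137 within WT. With no minimum fold change, by construction a wider rule, calls were 5081 with S7, 5730 with NTG, 1370 with S13, 4180 with S3, 2812 with S4, 3002 for S7 against NTG within N2V8, 5178 within WT and 711 in the lists. An adjusted p under 0.01 gave 254 with S13, 753 with S4, 1711 for S7 minus S13, 1667 for S7 minus S4 and 802 within N2V8. The S13 count was also 260 with adjustment within that comparison and 293 with the compared libraries alone, and the cause was not tested.

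Of 158 named genes called with S7, 132 kept the call with each of the 6 libraries left out and 26 lost it at least once, among them FGF21, H3C4, H2AC15, RPS26, EIF2AK3 and PAX2. AKNA, not called with S7, was called under 7 alternatives, among them DESeq2, limma-trend and the fit without WT_S7 replicate 1. Replicate numbers did not pair the libraries (correlations of same-numbered deviations 0.0430, 0.0356 and 0.00520). A replicate block gave 3047 calls with S7, 4702 for S7 minus NTG and 0.22 for C9orf72, and among the named genes 1 lost its call (PSMB9). Each group held 3 libraries, and genes near the detection floor, such as HSPA6 and SPRY4, had wide errors at this depth.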
